A study of Mus musculus with 48 samples.

Results

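The genes described here are 38 mouse genes for protein folding in the endoplasmic reticulum (ER) and for the unfolded protein response, chosen by name for their known function, at a time when earlier results of these data were known. They are 38 of the 18194 genes that at least 1 probe of the array measures alone. Their levels were followed over 48 arrays of 13 sorted pancreatic cell populations with 3 to 5 arrays each, from the E11.5 bud to the pancreas of mice of 8-12wk. The genes fall into 7 groups by role: 5 chaperones, 6 enzymes of disulfide formation, 5 co-chaperones, 2 secreted ER stress proteins, 8 sensors and stress factors, 8 genes of ER-associated degradation (ERAD) and 4 genes of translocation and signal peptide removal.

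All mice were labelled as CD-1 background, and 44 arrays were from wild-type genotypes. At E15.5 the labels give Neurog3-null cells (4 arrays), Beta cells (4), Acinar cells (3), Endocrine Progenitors (3) and Progenitors (3), and at E11.5 Sox9 cells (4). Later Beta cells were taken at E17.5 (3), P0 (3), P15 (4) and 8-12wk (4), Alpha cells at 8-12wk (5) and P0 (4), and Duct cells at 8-12wk (4). By the study's methods, a Sox9-eGFP transgene marked the E11.5 cells, and CD24, CD133 and CD49f staining with a Neurog3-eGFP reporter separated the E15.5 progenitors, endocrine progenitors and acinar cells. The Neurog3-null cells were GFP-positive cells of embryos in which both Neurog3 copies carried an eGFP knock-in. A mouse insulin promoter-GFP transgene marked beta cells, a Glucagon-Venus transgene marked alpha cells, and CD133 staining marked duct cells. Pancreata were pooled, and GFP persists into descendants of the cells that made it. Beta cells of E15.5 and E17.5 were both dissociated with trypsin, and those of P15 and 8-12wk both with collagenase. The dissociating enzymes otherwise changed with stage, so across other ages stage and enzyme cannot be told apart. In sorted bulk RNA, fewer cells of a type and less RNA per cell cannot be told apart, and p-values measure the spread between these arrays.

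Secretory proteins enter the ER through the Sec61 channel, lose their signal peptide, are bound by chaperones such as Hspa5 (BiP) and Hsp90b1, and acquire disulfide bonds through the protein disulfide isomerases, which Ero1 oxidases re-oxidise. Chains that fail to fold are exported and degraded by ERAD. When unfolded chains accumulate, the sensors Ern1 (IRE1alpha), Eif2ak3 (PERK) and Atf6 act through spliced Xbp1, through Atf4 and its target Ddit3 (CHOP), and through cleaved Atf6, and they raise chaperone and ERAD genes. Acinar cells export digestive enzymes and beta cells export insulin, and both are known for an extended ER.

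The ER stress response element (ERSE), to which Atf6 and the CCAAT factor NF-Y bind, reads CCAAT, then any 9 bases, then CCACG. It was searched on both strands in the 250 bases before and 50 after each transcription start that RefSeq gives for build GRCm38.p6, in which 34 of the 38 members matched by symbol (not Manf, Derl1, Atf6 and Hyou1). It was found in 10 of these 34 (29.4%), against 37 of all 27025 genes (0.137%). The members were chosen for known function in the response that this element serves, so the shares are a description and not a test. The 10 members are Calr, Canx, Creld2, Derl3, Dnajc3, Ero1b, Hsp90b1, Hspa5, Pdia6 and Syvn1, and Hsp90b1 holds 2 matches. The sites below are shown because their genes recur in the results or anchor the response (Hspa5). They run 5′ to 3′ on the gene's strand, with the ends of the element in capitals. CGTGG followed by ATTGG is the element read on the other strand.
Hspa5, chr2:34772009-34772059 (+): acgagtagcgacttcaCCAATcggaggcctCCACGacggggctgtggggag
Ero1b, chr13:12565666-12565716 (+): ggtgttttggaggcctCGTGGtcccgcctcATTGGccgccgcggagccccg
Derl3, chr10:75893226-75893276 (+): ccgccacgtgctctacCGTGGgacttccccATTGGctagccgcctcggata
Creld2, chr15:88819504-88819554 (+): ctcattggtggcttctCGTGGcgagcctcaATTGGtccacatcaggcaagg
Pdia6, chr12:17266475-17266525 (+): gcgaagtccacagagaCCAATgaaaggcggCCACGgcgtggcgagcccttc
Dnajc3, chr14:118937811-118937861 (+): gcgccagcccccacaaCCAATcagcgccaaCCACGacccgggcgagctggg
Syvn1, chr19:6046516-6046566 (+): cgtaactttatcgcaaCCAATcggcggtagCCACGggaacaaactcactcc

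A shorter form, ERSE-II (ATTGG, any 1 base, then CCACG), was found in Herpud1 and Dnajb11, 2 of 34 members (5.88%), against 12 of 27025 genes (0.0444%). The element TTGCATCA, of the kind bound by C/EBP and ATF factors, was found in 1 of 34 members (2.94%) and in 279 of 27025 genes (1.03%). That member is Herpud1, an ER membrane protein of ERAD, and the stretch that holds both elements is shown with each in capitals. The sequence TGACGTGG, a site of Xbp1 and Atf6, was found in 0 of 34 members and in 193 genes (0.714%). Both strands were searched for each, and no 2 elements overlapped in a member. A match describes these letters and is not evidence of binding in these cells, and the choice of members limits these shares as it does for the ERSE.
Herpud1, chr8:94386301-94386403 (+): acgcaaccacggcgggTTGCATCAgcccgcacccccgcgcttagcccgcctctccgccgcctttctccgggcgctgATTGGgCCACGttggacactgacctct

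Values are log2 expression after RMA (robust multi-array average), the summary that the authors deposited, and each gene is read from its brightest probe set. All 38 members passed the filter, a value above 100 on the linear scale (6.64 on the log2 scale) on at least 1 array. The medians of the 48 arrays lay between 6.58 and 6.88, and the highest value of any probe was 15.10. Some members, among them Pdia4, Sdf2l1 and Derl3, lay near or under these medians in some populations, where the sizes of differences are uncertain. The label of the mutant was checked first: Neurog3 read 10.97, 10.29, 10.70 and 10.32 in the Neurog3-null cells, against 13.34, 13.41 and 13.44 in endocrine progenitors. Defining markers fitted the labels for Ins2 (14.11 to 14.71 in beta cells) and Krt19 (13.74 to 13.88 in duct cells). Of the other duct genes, Cftr was highest in duct cells (mean 12.13), but Krt7 averaged 12.13 there and 13.32 in endocrine progenitors. Sox9 averaged 12.71 in duct cells and 12.56 in E15.5 progenitors, and Muc1 12.52 in duct cells and 12.59 in Neurog3-null cells. Gcg overlapped, at 13.72 to 14.21 in beta cells against 14.18 to 14.52 in alpha cells, and Ins2 read 13.53 to 14.58 in alpha cells. Markers of other cell types also varied with the sorts. The mean of 13 acinar genes was 12.22 in 8-12wk beta cells, 13.07 in duct cells and 12.09 in acinar cells, and that of 16 macrophage and leukocyte genes was 11.30 in Neurog3-null cells, 11.29 in 8-12wk beta cells and 11.68 in duct cells but 5.15 to 9.92 elsewhere.

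The ER genes varied between populations about as widely as other genes on the array. The distance between the highest and the lowest population mean had a median of 1.83 for the members and of 2.01 over all genes, and it reached 1 for 32 of 38 members and for 12896 of 14405 genes. It reached 2 for 16 members and 7259 genes. The widest spans belonged to Pdia4, a protein disulfide isomerase (5.03), Sdf2l1, a co-chaperone that works with Hspa5 (4.97), Ppp1r15a (GADD34), which restores translation after stress (4.17), Edem1, which directs misfolded glycoproteins to ERAD (4.15), and Ero1b, the oxidase that beta cells are known to express (3.93). The narrowest were Hspa5 (0.63), Canx, a lectin chaperone (0.66), Dnajc10, an ER reductase (0.70), P4hb, the founding disulfide isomerase (0.73) and Hsp90b1 (0.77). These spans hold for the brightest probe sets only. Population means of another probe set ran from 7.72 to 10.66 for Canx, 9.29 to 11.07 for Dnajc10 and 11.99 to 13.19 for Hsp90b1. For Hspa5 they ran from 12.996 to 13.635 on another probe set and from 7.06 to 8.75 on its dimmest, and P4hb has only 1. The brightest probe set of Hspa5 stayed between 13.11 and 14.02 on all 48 arrays, near the upper end of the scale. Whether it could read a further increase was not tested.

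**Figure D1:**
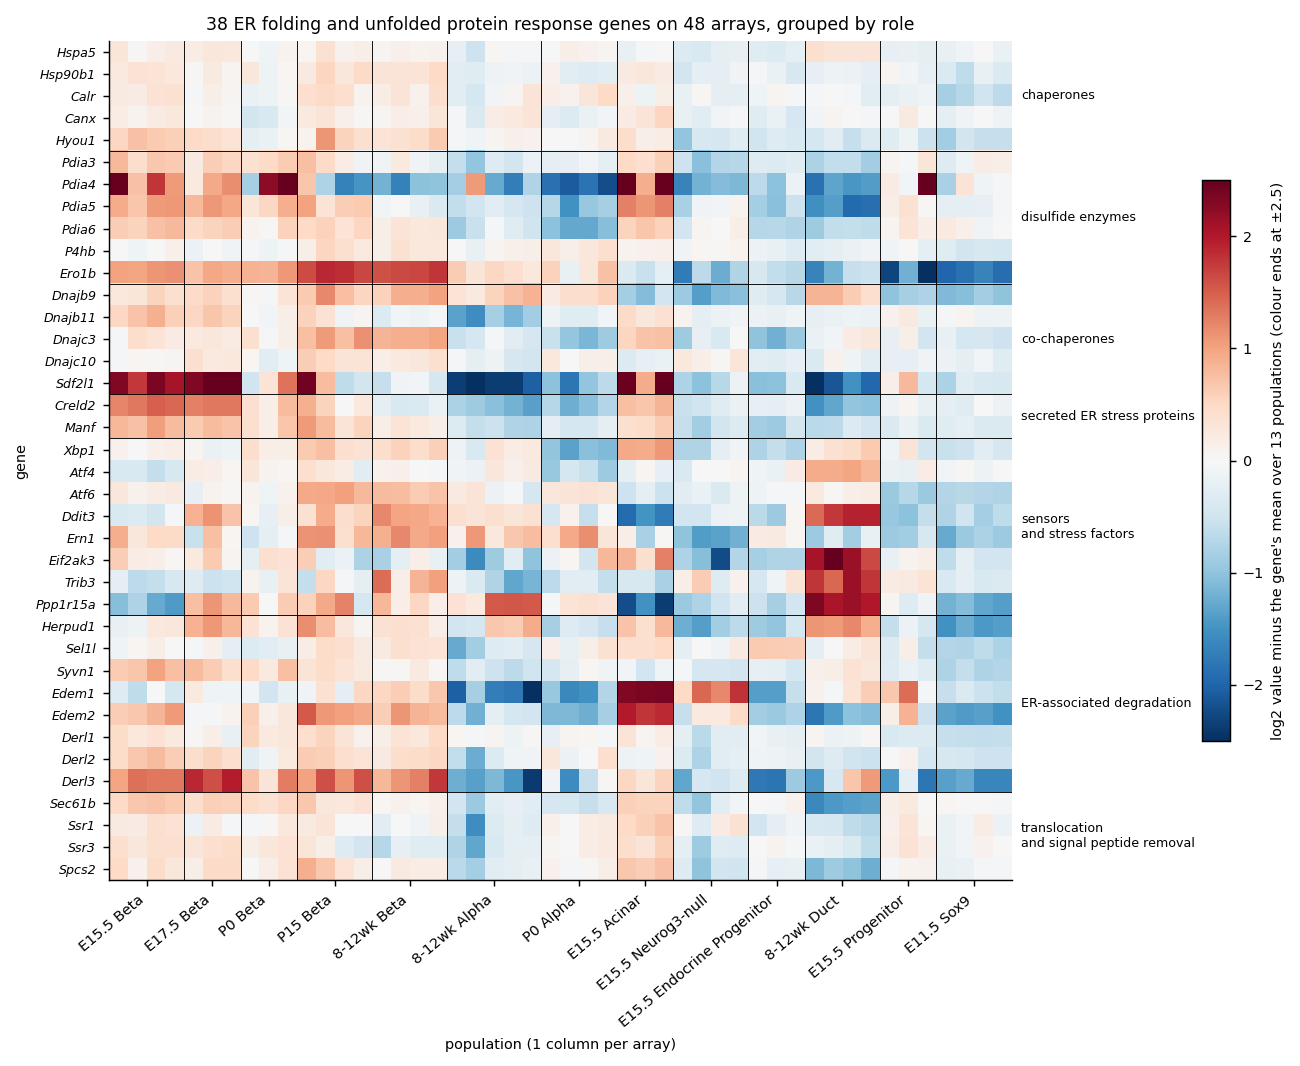
Heat map of the 38 members (rows, grouped by role), with columns arranged by population and colour giving the log2 level minus the member's mean over the 13 populations. Acinar cells and E15.5 beta cells each hold the highest mean of 9 members, and E11.5 Sox9 cells hold the lowest of 9.

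The populations with the highest means were acinar cells and E15.5 beta cells (9 members each), P15 beta cells and duct cells (7 each), E17.5 beta cells and 8-12wk beta cells (2 each), and P0 beta cells and endocrine progenitors (1 each). The lowest means were found in E11.5 cells for 9 members and in 8-12wk alpha cells for 8. The roles did not share 1 order. With each gene centred on its mean over the 13 populations, the disulfide enzymes averaged 0.88 in E15.5 beta cells, 0.84 in acinar cells and −0.97 in duct cells. The secreted ER stress proteins Creld2 and Manf averaged 1.11 in E15.5 beta cells and 1.01 in E17.5 beta cells, with −0.87 in duct cells and −0.83 in 8-12wk alpha cells. The 8 sensors and stress factors ran the other way in the exocrine lineages, at 1.09 in duct cells and −0.40 in acinar cells. ERAD genes averaged 0.71 in acinar cells and 0.59 in P15 beta cells, against −0.91 in E11.5 cells.

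Ero1b and Pdia4 show how far the patterns part. Ero1b read 13.09, 13.07, 13.20 and 13.24 in E15.5 beta cells, 12.81, 13.05 and 13 at E17.5, 12.95, 12.94 and 13.18 at P0, 13.72, 13.98, 13.92 and 13.75 at P15, and 13.68, 13.73, 13.75 and 13.87 at 8-12wk. Alpha cells were the next population, at 12.36 to 12.71 at 8-12wk and 11.90 to 12.82 at P0, and the E15.5 progenitors were the lowest at 9.78, 10.89 and 9.06. The P0 arrays overlapped those of E15.5 and of E17.5, and the P15 arrays overlapped those of 8-12wk. Pdia4 read 11.82, 8.75 and 12.03 in acinar cells and 12.05, 8.58, 9.63 and 8.91 in E15.5 beta cells, against 5.63 to 5.99 in P0 alpha cells. Its arrays scattered by an SD of 1.05 within populations, so its rank order beyond these extremes is loose.

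**Figure D2:**
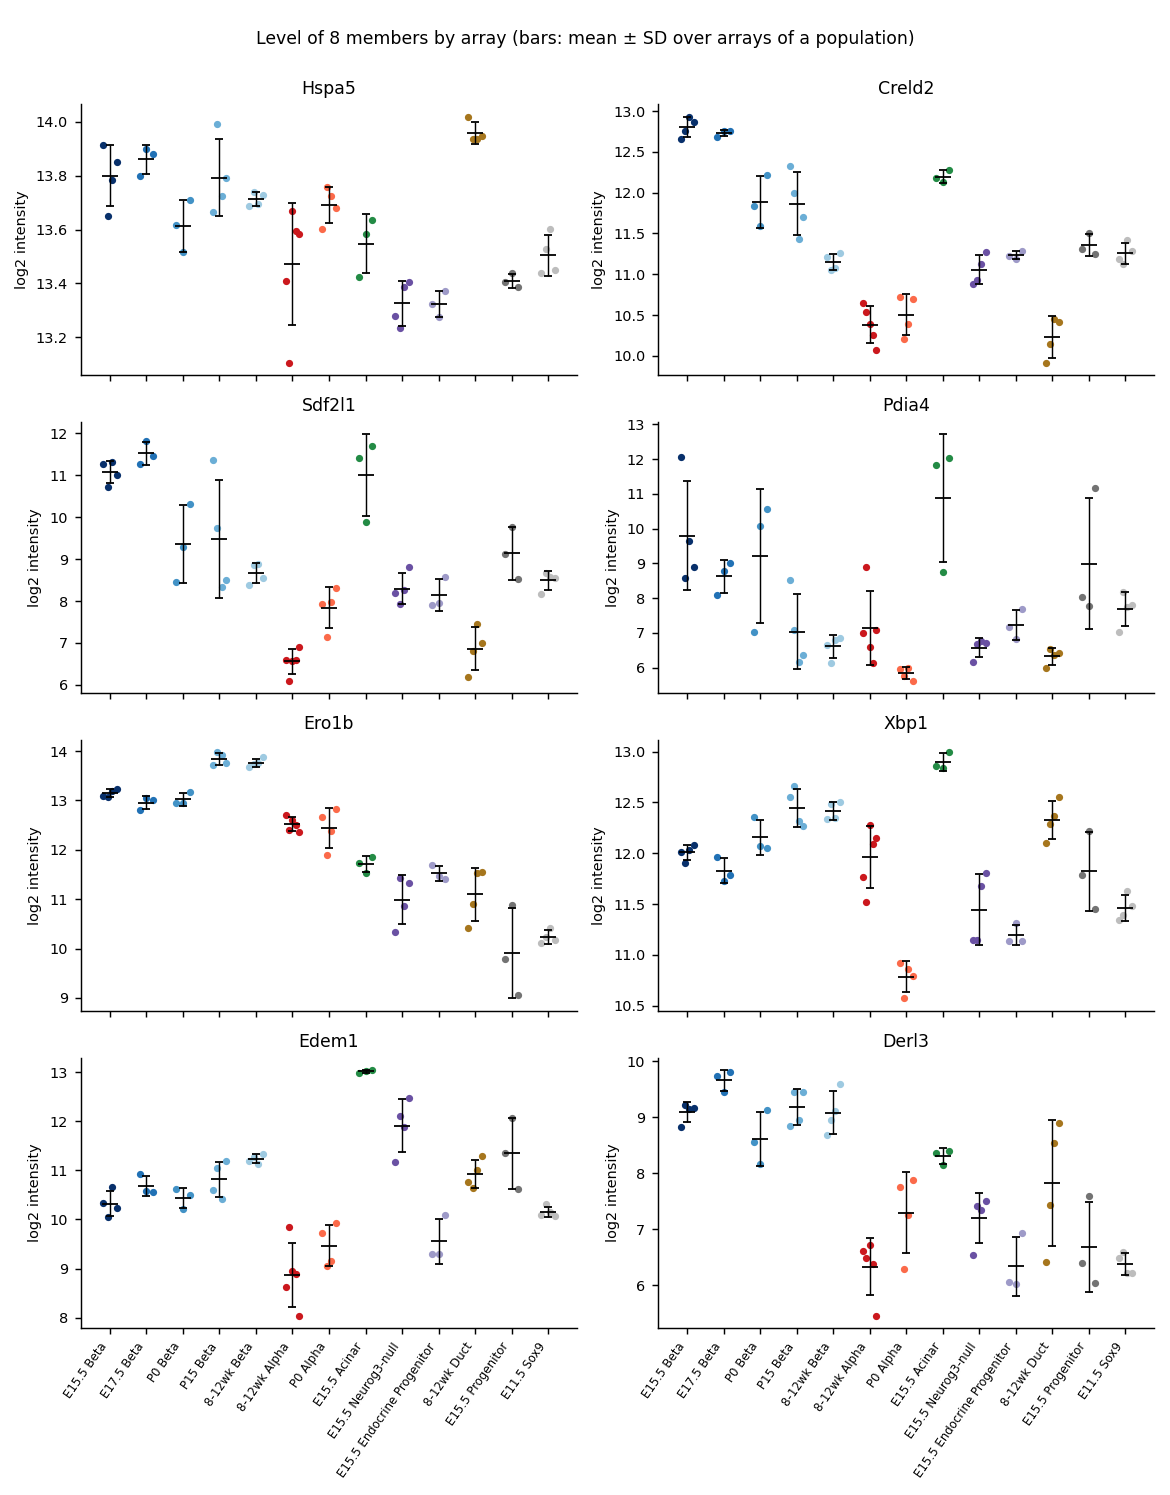
Log2 level on every array (points) and population mean (bar) for Hspa5, Creld2, Sdf2l1, Pdia4, Ero1b, Xbp1, Edem1 and Derl3 in the 13 populations. Hspa5 spans 0.63 between population means, and Pdia4 5.03.

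Members were compared between populations with limma, and a change was called at an adjusted p below 0.05 with a difference of at least 1 on the log2 scale (2-fold). Acinar cells at E15.5 were first set against the E15.5 progenitors, and ERAD and folding genes were among those that rose. Of the 38 members 8 rose (background 4.63% of all genes tested) and 1 fell (background 7.06%), and the median difference was 0.43, beside −0.02 over all genes. The risers were 4 of 8 ERAD genes, 2 of 6 disulfide enzymes, 1 of 5 co-chaperones and 1 of 8 sensors.

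Sdf2l1 read 11.42, 9.89 and 11.70 in acinar cells and 9.13, 9.78 and 8.52 in progenitors, a difference of 1.86 (SE 0.49, limma adjusted p = 0.00459). Ero1b read 11.73, 11.54 and 11.85 in acinar cells and 9.78, 10.89 and 9.06 in progenitors (1.79, SE 0.28, limma adjusted p = 4.92e-06). The groups did not overlap for either gene, but the progenitor arrays were spread widely. Edem2, a relative of Edem1, read 11.77, 11.58 and 11.65 in acinar cells and 9.94, 10.64 and 9.24 in progenitors (limma adjusted p = 1.19e-06). Xbp1, the transcription factor that the sensor Ern1 activates by splicing, read 12.86, 12.84 and 12.99 in acinar cells and 11.79, 12.22 and 11.45 in progenitors (1.08, SE 0.18, limma adjusted p = 1.23e-05), and all 4 of its probes were called. The annotation does not tell spliced from unspliced Xbp1. Edem1 (1.67), Derl3, an ERAD channel protein (1.63), Herpud1 (1.03) and Pdia5 (1.01) rose as well. The gene that fell was Ppp1r15a, at 8.29, 8.99 and 8.12 in acinar cells against 10.58, 10.19 and 10.42 in progenitors (−1.93, SE 0.31, limma adjusted p = 1.1e-05).

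Of 54 further ER genes on a wider list, 4 rose and 1 fell. The largest riser was Bhlha15 (MIST1), a transcription factor of secretory cells (2.08, SE 0.43, limma adjusted p = 0.000386), and the one that fell was Atf3, a stress-induced transcription factor (−5.67, SE 0.69, limma adjusted p = 4.9e-08). The progenitors already held acinar transcripts, with a mean over the 13 acinar genes of 10.38 (9.55 to 11.22), against 12.09 (12.05 to 12.13) in acinar cells. The mean of 11 immediate-early genes, which cell dissociation is known to induce, was 8.60 in acinar cells and 11.51 in progenitors. Endothelial markers averaged 9.16 (8.61 to 9.68) in acinar cells and 5.36 (5.14 to 5.60) in progenitors. The part of any of these lists in the differences was not tested. Without progenitor replicate 3 the calls of Xbp1 (0.89) and Derl3 (1.31) were lost and Pdia4 was called (2.96), without acinar replicate 3 the call of Sdf2l1 (1.51) was lost, and Herpud1 and Pdia5 lost theirs without any 1 of several arrays. The methods' t-test called only Herpud1 and Pdia5 higher. In the mean over a gene's probes Sel1l (1.04) and Ssr1 (1.13) were called higher as well.

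Acinar cells and endocrine progenitors, sorted from pancreata of the same stage, stood further apart. Of the members 12 rose in acinar cells (background 14.7%) and 2 fell (background 15.4%), with a median difference of 0.54, beside 0.01 over all genes. The risers were 4 of 8 ERAD genes, 3 of 6 disulfide enzymes, 2 of 5 co-chaperones, Manf, Xbp1 and Eif2ak3, and none of the 5 chaperones or 4 translocation genes was called. Pdia6, one of the disulfide enzymes, was not called in the mean over its probes (0.86). In that mean the chaperones Hyou1 (1.34) and Canx (1.23) and the translocation gene Ssr1 (2.03) were called higher in acinar cells. Pdia4 read 11.82, 8.75 and 12.03 in acinar cells and 7.18, 6.82 and 7.69 in endocrine progenitors (3.64, SE 0.82, limma adjusted p = 0.000319). Edem1 read 12.99, 13.03 and 13.04 in acinar cells and 9.29, 9.31 and 10.09 in endocrine progenitors (3.46, SE 0.32, limma adjusted p = 1.08e-11). Sdf2l1 read 11.42, 9.89 and 11.70 in acinar cells and 7.91, 7.94 and 8.58 in endocrine progenitors (2.86, SE 0.49, limma adjusted p = 5.71e-06). These 3 genes were picked for the size of their differences and did not overlap between the populations, and Edem1 had the tightest acinar values.

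Xbp1 was 12.86, 12.84 and 12.99 in acinar cells and 11.14, 11.31 and 11.14 in endocrine progenitors (1.70, SE 0.18, limma adjusted p = 1.65e-10). The 2 that fell belong to the arm of the response that follows Eif2ak3. Ddit3, a transcription factor linked to cell death under stress, read 8.22, 8.63 and 8.38 in acinar cells and 9.46, 9.22 and 10.19 in endocrine progenitors (−1.22, SE 0.19, limma adjusted p = 1.56e-06), and the difference was −0.93 without endocrine progenitor replicate 3 and −0.74 over its probes, not called in either. Ppp1r15a read 8.29, 8.99 and 8.12 in acinar cells and 9.96, 9.67 and 10.03 in endocrine progenitors (−1.42, SE 0.31, limma adjusted p = 0.000238). Of the wider list 13 rose and 3 fell, led by Agr2, a disulfide isomerase of mucus-secreting cells (4.77, SE 1.14, limma adjusted p = 0.000651), and Atf3 (−4.64, SE 0.69, limma adjusted p = 4.54e-07). Immediate-early genes averaged 8.60 in acinar cells and 10.62 in endocrine progenitors, and endothelial markers 9.16 and 5.10, and their part in these values was not tested.

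In E15.5 progenitors against E11.5 Sox9 cells, 4 members rose (background 6.25%) and 0 fell (background 7.30%), with a median of 0.26, beside −0.01 over all genes. Edem2 read 9.94, 10.64 and 9.24 in E15.5 progenitors and 8.44, 8.37, 8.42 and 8.27 in E11.5 cells (1.57, SE 0.23, limma adjusted p = 1.16e-06), and it was 0.86 and not called in the mean over its probes. Edem1 read 11.35, 12.07 and 10.63 in E15.5 progenitors and 10.09, 10.31, 10.14 and 10.07 in E11.5 cells (1.20, SE 0.30, limma adjusted p = 0.00242), and lost its call without E15.5 progenitor replicate 2 (0.84). Ppp1r15a read 10.58, 10.19 and 10.42 in E15.5 progenitors and 9.32, 9.42, 9.20 and 9.12 in E11.5 cells (1.13, SE 0.29, limma adjusted p = 0.00331). The fourth was Herpud1 (1.00), which lost its call without any 1 of 3 arrays. On the wider list 7 rose and 0 fell, led by Pdia2, a disulfide isomerase of the exocrine pancreas (5.22, SE 1.10, limma adjusted p = 0.000314). The acinar gene mean was 10.38 in E15.5 progenitors and 7.74 in E11.5 cells, and immediate-early genes averaged 11.51 and 10.17. The E11.5 cells also held endocrine transcripts, with Gcg at 8.28 in E15.5 progenitors and 13.68 in E11.5 cells and Neurod1 at 7.08 and 11.67. The part of these differences in the calls was not tested.

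Few ER genes were called in endocrine progenitors against E15.5 progenitors: 1 member rose (background 10.7%) and 2 fell (background 11.8%), and the median was −0.20, beside −0.03 over all genes. Ero1b read 11.70, 11.47 and 11.40 in endocrine progenitors and 9.78, 10.89 and 9.06 in progenitors (1.61, SE 0.28, limma adjusted p = 1.01e-05), called on 2 of 3 probes. Edem1 read 9.29, 9.31 and 10.09 in endocrine progenitors and 11.35, 12.07 and 10.63 in progenitors (−1.79, SE 0.32, limma adjusted p = 1.91e-05). Edem2 read 8.92, 8.86 and 9.002 in endocrine progenitors and 9.94, 10.64 and 9.24 in progenitors (−1.01, SE 0.25, limma adjusted p = 0.0011), and was −0.66 without progenitor replicate 2. The oxidase thus stood higher and this ERAD pair lower, none overlapping, but the methods' t-test called none of the 3. In the mean over a gene's probes neither Ero1b (0.84) nor Edem2 (−0.47) was called. In that mean Sel1l, another ERAD gene, was called higher (1.07), beside 0.90 on its brightest probe. On the wider list 2 rose and 4 fell, with Wfs1, the ER membrane protein mutated in Wolfram syndrome, at 1.34 (SE 0.21, limma adjusted p = 1.6e-06) and Bhlha15 at −2.06 (SE 0.43, limma adjusted p = 0.000186). The acinar gene mean was 8.77 in endocrine progenitors and 10.38 in progenitors, and its part was not tested. These comparisons and the pair with acinar cells share arrays.

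GFP-positive cells without Neurog3, the transcription factor that commits cells to the endocrine lineage, were set against endocrine progenitors. Across all genes this was among the larger contrasts, yet 1 member rose (background 18.7%) and 1 fell (background 14.2%), and the median was −0.05, beside 0.10 over all genes. Edem1 read 11.18, 12.11, 11.88 and 12.48 in Neurog3-null cells and 9.29, 9.31 and 10.09 in endocrine progenitors (2.35, SE 0.30, limma adjusted p = 2e-08), called on 1 of 2 probes. Ern1 read 9.47, 9.09, 9.14 and 9.28 in Neurog3-null cells and 10.68, 10.71 and 10.54 in endocrine progenitors (−1.40, SE 0.26, limma adjusted p = 1.73e-05), called on 2 of 3 probes, and averaged −0.50 over its probes. Neither pair of groups overlapped. In the mean over a gene's probes the ERAD gene Sel1l was called lower (−1.19), beside −0.66 on its brightest probe. Among the 54 other ER genes 7 rose and 1 fell, with Pdia2 at 3.70 (SE 1.10, limma adjusted p = 0.00429), Bhlha15 at 3.20 (SE 0.40, limma adjusted p = 1.61e-08) and Selenok, an ER selenoprotein, at −1.98 (SE 0.27, limma adjusted p = 8.93e-08). Macrophage and leukocyte genes averaged 11.30 in Neurog3-null cells and 6.01 in endocrine progenitors, with Ptprc at 10.04 to 11.09 and 3.35 to 3.56, although CD45 had been used to exclude leukocytes, and acinar genes averaged 11.14 and 8.77. The part of these cells in the 2 calls was not tested.

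E15.5 beta cells were next set against endocrine progenitors, and 13 of 38 members rose (background 6.69%) and 0 fell (background 4.57%), and the median was 0.77, beside 0.01 over all genes. The risers were 4 of 6 disulfide enzymes, 2 of 2 secreted proteins, 3 of 8 ERAD genes, 2 of 5 co-chaperones, 1 of 5 chaperones, 1 of 8 sensors and 0 of 4 translocation genes. With each array centred on its median 10 rose. In the mean over a gene's probes the translocation gene Ssr1 (1.02), Pdia3 (1.02) and Derl2 (1.04) were called as well.

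Sdf2l1 read 11.27, 10.72, 11.31 and 11.02 in E15.5 beta cells and 7.91, 7.94 and 8.58 in endocrine progenitors (2.94, SE 0.46, limma adjusted p = 4.9e-06). Derl3 read 8.83, 9.22, 9.15 and 9.17 in E15.5 beta cells and 6.06, 6.01 and 6.93 in endocrine progenitors (2.76, SE 0.40, limma adjusted p = 1.52e-06). Every E15.5 beta cell array lay well above every endocrine progenitor array for both. Ero1b read 13.09, 13.07, 13.20 and 13.24 in E15.5 beta cells and 11.70, 11.47 and 11.40 in endocrine progenitors (1.63, SE 0.26, limma adjusted p = 7.21e-06), called on all 3 probes. Pdia4 read 12.05, 8.58, 9.63 and 8.91 in E15.5 beta cells and 7.18, 6.82 and 7.69 in endocrine progenitors (2.56, SE 0.77, limma adjusted p = 0.0129). The groups did not overlap, but 1 beta cell array stood above the rest, and without it the difference was 1.81 and was not called, as it was not without endocrine progenitor replicate 2 (2.35). The methods' t-test did not call Pdia4 here, in acinar cells against endocrine progenitors, at P15 against P0 or in duct cells against progenitors.

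The others were Pdia5 (1.75), Edem2 (1.66), Manf, a secreted factor that protects cells from ER stress (1.59), Creld2 (1.57), Pdia6 (1.40), Dnajc3 (P58IPK), a co-chaperone that also restrains Eif2ak3 (1.27), Syvn1 (HRD1), the ubiquitin ligase of ERAD (1.06), Eif2ak3 (1.03) and Hyou1, an Hsp70-like nucleotide exchange factor (1.03). The last 3 were near the threshold, and each lost its call without 1 particular array (either of 2 for Hyou1 and for Syvn1), at values of 0.91 to 1.00, and with each array centred on its median (0.97 to 1.00). Eif2ak3 was 0.46 in the mean over its probes. The chaperone Hspa5 was not called. Of the 10 members with an ERSE match 6 rose (median difference 1.17), against 5 of 24 whose promoter lacks it (0.69) and 2 of the other 4 (0.76). The split was looked at after the values were known and was not tested. In acinar cells against endocrine progenitors the same medians were both 0.54. Of the wider list 9 rose and 2 fell, with Fkbp11, an ER prolyl isomerase of secretory cells, at 2.21 (SE 0.42, limma adjusted p = 0.000131), and Atf3 at −3.30 (SE 0.64, limma adjusted p = 0.000158). Acinar genes averaged 8.99 in E15.5 beta cells and 8.77 in endocrine progenitors, macrophage and leukocyte genes 7.40 and 6.01, and mesenchymal genes 9.47 and 8.07, and the part of the last 2 lists was not tested.

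**Figure D3:**
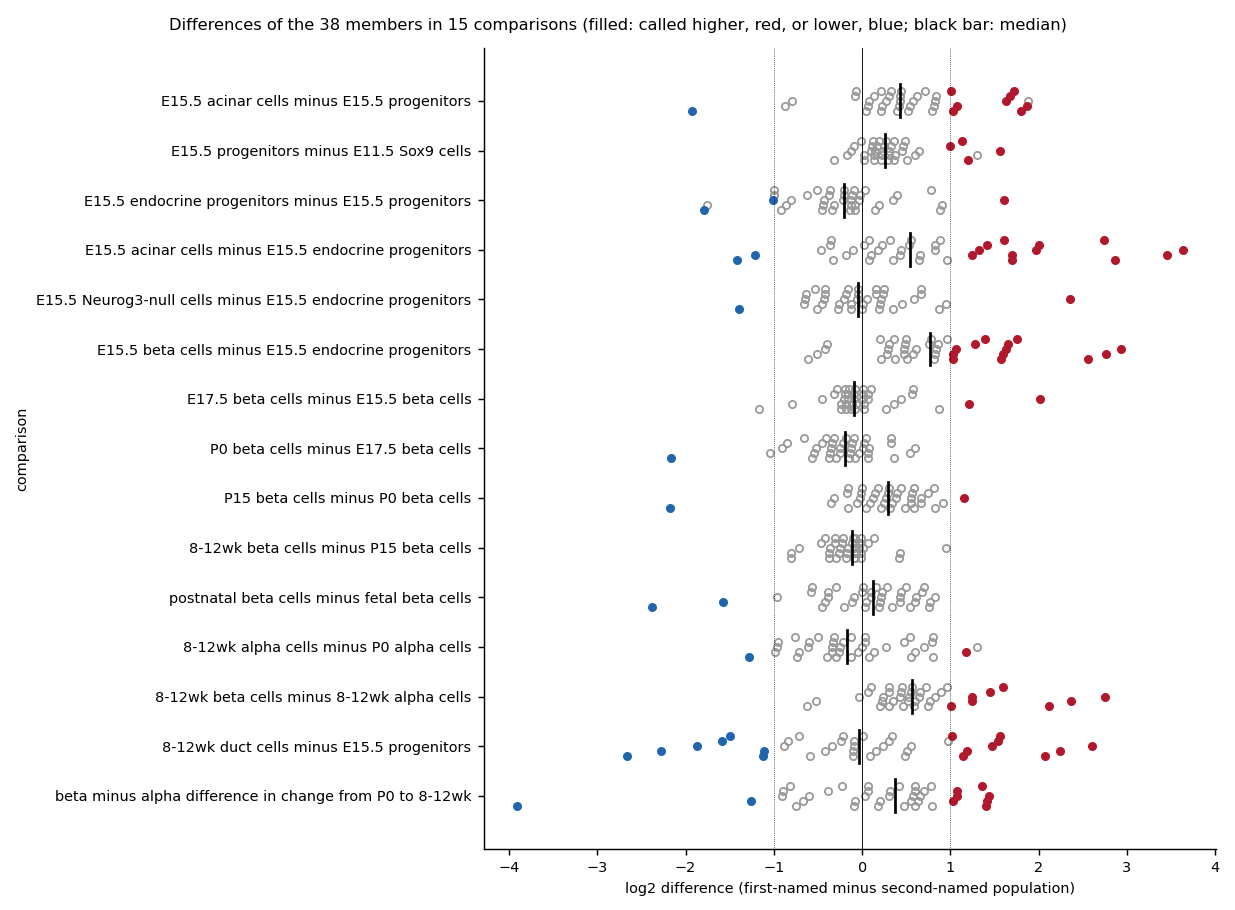
Log2 difference of each member in the main comparisons, with filled symbols where the change was called. For E15.5 beta cells against endocrine progenitors 13 members were called higher and 0 lower.

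Along the beta cell time course few members moved at any one step. At E17.5 against E15.5, 2 members rose (background 9.21%) and 0 fell (background 1.74%), with a median of −0.09, beside −0.05 over all genes. Both belong to the stress arm. Ppp1r15a read 11.26, 11.61 and 11.31 in E17.5 beta cells and 9.44, 9.73, 9.24 and 9.09 in E15.5 beta cells (2.02, SE 0.29, limma adjusted p = 1.85e-06). Ddit3 read 10.996, 11.26 and 10.84 in E17.5 beta cells and 9.75, 9.80, 9.66 and 10.10 in E15.5 beta cells (1.21, SE 0.18, limma adjusted p = 3.25e-06), called on both probes. On the wider list 2 rose, Atf3 (4.16, SE 0.64, limma adjusted p = 5.97e-06) and Creb3l1, an ER-anchored transcription factor (1.04, SE 0.29, limma adjusted p = 0.0069), and 0 fell. Immediate-early genes averaged 11.84 (11.70 to 12.08) in E17.5 beta cells and 10.03 (9.64 to 10.55) in E15.5 beta cells, and endothelial genes 10.19 and 6.59, and the part of either was not tested.

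At P0 against E17.5, 0 members rose (background 4.36%) and 1 fell (background 1.65%), and the median was −0.20, beside 0.03 over all genes. Sdf2l1 read 8.46, 9.29 and 10.32 in P0 beta cells and 11.28, 11.83 and 11.47 in E17.5 beta cells (−2.17, SE 0.49, limma adjusted p = 0.00247), a separation without overlap but with a wide P0 spread, and it was not called by the methods' t-test. Of the 54 other ER genes 2 rose, led by Agr2 (3.97, SE 1.14, limma adjusted p = 0.0168), and 0 fell. Acinar genes averaged 11.64 in P0 beta cells and 8.54 in E17.5 beta cells, and macrophage and leukocyte genes 9.92 and 8.74, which was not tested as a part of the result.

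At P15 against P0, 1 member rose (background 6.65%) and 1 fell (background 18.3%), with a median of 0.30, beside −0.02 over all genes. The sensor Ern1 read 11.61, 11.63, 10.87 and 11.31 in P15 beta cells and 9.96, 10.23 and 10.43 in P0 beta cells (1.15, SE 0.26, limma adjusted p = 0.000313), on 2 of 3 probes. Pdia4 read 8.54, 7.08, 6.16 and 6.37 in P15 beta cells and 7.02, 10.07 and 10.57 in P0 beta cells (−2.18, SE 0.77, limma adjusted p = 0.017). These Pdia4 groups overlapped, and the call was lost without P0 replicate 2 (−1.76), P0 replicate 3 (−1.51) or P15 replicate 3 (−1.89), and in the mean over the probes (−0.92). Of the wider list 3 rose and 2 fell, with Chac1, a glutathione-degrading target of Atf4 and Ddit3, at 1.75 (SE 0.33, limma adjusted p = 2.93e-05) and Agr2 at −2.69 (SE 1.07, limma adjusted p = 0.0339). Mesenchymal genes averaged 6.01 in P15 beta cells and 12.23 in P0 beta cells, and endothelial genes 6.11 and 10.92, and their part was not tested.

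Between 8-12wk and P15 beta cells 0 members rose (background 8.22%) and 0 fell (background 1.49%), with a median of −0.11, beside −0.04 over all genes. At an adjusted p alone, without the 2-fold limit, 1 was higher and 4 were lower, with no share over all genes counted. Trib3, a pseudokinase induced by Ddit3 and named here after its values were seen, came nearest in size, at 8.80, 7.57, 8.26 and 8.43 in 8-12wk beta cells and 6.80, 7.92, 7.37 and 7.19 in P15 beta cells, which overlap. Among the 54 other ER genes Bcl2, an anti-apoptotic protein of ER and mitochondrial membranes (1.53, SE 0.23, limma adjusted p = 3.34e-06), and Chac1 (1.13, SE 0.30, limma adjusted p = 0.00679) rose. Macrophage and leukocyte genes averaged 11.29 in 8-12wk beta cells and 7.66 in P15 beta cells, and acinar genes 12.22 and 10.66, and their part was not tested.

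With the stages grouped as the study's methods group them, postnatal beta cells (P15 and 8-12wk) against fetal beta cells (E15.5, E17.5 and P0, the last named P1 in the methods), 0 members rose (background 6.37%) and 2 fell (background 14.8%), and the median was 0.13, beside −0.05 over all genes. Pdia4 ranged over 6.15 to 8.54 with a median of 6.73 in postnatal beta cells, and over 7.02 to 12.05 with a median of 8.96 in fetal beta cells (−2.39, SE 0.48, limma adjusted p = 4.54e-05). Sdf2l1 ranged over 8.32 to 11.36 with a median of 8.70 in postnatal beta cells, and over 8.46 to 11.83 with a median of 11.14 in fetal beta cells (−1.58, SE 0.29, limma adjusted p = 9.17e-06). The groups overlapped for both. Among the P15 arrays, replicate 1 was the highest for Sdf2l1 (11.36) and Pdia4 (8.54), and it also had the highest acinar gene mean of that group, 12.91. Over the single arrays, mesenchymal genes averaged 5.40 to 8.14 in postnatal and 9.09 to 12.29 in fetal beta cells, and macrophage and leukocyte genes 6.77 to 11.66 and 6.79 to 10.11. The part of these lists was not tested. Chac1 was the largest riser of the wider list (2.33, SE 0.20, limma adjusted p = 1.37e-12), in which 4 rose and 1 fell.

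Over the beta cell ages Sdf2l1 had population means of 11.08 at E15.5, 11.52 at E17.5, 9.36 at P0, 9.48 at P15 and 8.67 at 8-12wk, with P15 arrays between 8.32 and 11.36. Creld2 was its nearest member in pattern, with a Pearson r of 0.97 over the 13 population means.

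In alpha cells, which secrete glucagon, 1 member rose (background 6.87%) and 1 fell (background 15.7%) between P0 and 8-12wk, with a median of −0.17, beside −0.03 over all genes. Xbp1 read 11.77, 11.52, 12.27, 12.09 and 12.15 in 8-12wk alpha cells and 10.92, 10.57, 10.86 and 10.80 in P0 alpha cells (1.17, SE 0.14, limma adjusted p = 1.1e-08), called on 2 of 4 probes and at 0.83 in the mean over its probes. Sdf2l1 read 6.60, 6.10, 6.58, 6.59 and 6.91 in 8-12wk alpha cells and 7.93, 7.15, 7.98 and 8.30 in P0 alpha cells (−1.28, SE 0.40, limma adjusted p = 0.00711). Neither gene overlapped between the ages. On the wider list 3 rose and 1 fell, led by Os9, an ERAD lectin (1.26, SE 0.13, limma adjusted p = 1.54e-10), and Pdia2 (−2.44, SE 0.96, limma adjusted p = 0.031). The acinar gene mean of the 8-12wk alpha arrays was 11.36, 11.75, 6.68, 6.63 and 7.71, against 10.40 in P0 alpha cells, and mesenchymal genes averaged 5.66 in 8-12wk and 10.73 in P0 alpha cells, endothelial genes 5.51 and 9.49, and macrophage and leukocyte genes 5.80 and 7.69. The part of these lists was not tested. Without 8-12wk alpha replicates 1 and 2 Ppp1r15a (1.29) and Herpud1 (1.28) rose and Derl3 fell (−1.11) as well.

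In the adult islet, beta cells carried more of several ER gene transcripts than alpha cells. At 8-12wk 8 members were higher in beta cells (background 12.0%) and 0 lower (background 5.61%), and the median was 0.56, beside −0.01 over all genes. They were 3 of 8 ERAD genes, 3 of 5 co-chaperones, 1 of 6 disulfide enzymes and 1 of 8 sensors and stress factors. In the mean over a gene's probes the chaperone Hyou1 (1.07), the sensor Atf6 (1.03) and the ERAD gene Sel1l (1.03) were called higher as well.

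Derl3 read 8.68, 8.95, 9.11 and 9.60 in beta cells and 6.61, 6.48, 6.73, 6.38 and 5.45 in alpha cells (2.76, SE 0.35, limma adjusted p = 3.27e-08). Edem1 read 11.20, 11.28, 11.13 and 11.34 in beta cells and 8.62, 9.84, 8.95, 8.88 and 8.03 in alpha cells (2.37, SE 0.26, limma adjusted p = 1.3e-09), on both probes. Sdf2l1 read 8.39, 8.86, 8.88 and 8.54 in beta cells and 6.60, 6.10, 6.58, 6.59 and 6.91 in alpha cells (2.11, SE 0.40, limma adjusted p = 4.08e-05). No alpha array reached a beta array in any of the 3, which were picked for the size of their differences. Ero1b read 13.68, 13.73, 13.75 and 13.87 in beta cells and 12.71, 12.41, 12.61, 12.51 and 12.36 in alpha cells (1.24, SE 0.23, limma adjusted p = 2.46e-05), on all 3 probes. Trib3 (1.60), Edem2 (1.44), Dnajc3 (1.25) and Dnajb11, a co-chaperone of Hspa5 (1.01), were also higher, the last of them losing its call without any 1 of 4 arrays (0.91 to 0.99) and with centring (0.90), and Dnajc3 was 0.86 in the mean over its probes.

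Acinar genes averaged 12.22 (11.74 to 12.78) in 8-12wk beta cells and 8.83 (6.63 to 11.75) in 8-12wk alpha cells, and macrophage and leukocyte genes 11.29 and 5.80. Their part in the difference was not tested. Without alpha replicates 1 and 2, whose acinar means were 11.36 and 11.75, 7 members were higher and 1, Ppp1r15a (−1.12), was lower. Of the 54 other ER genes 5 were higher and 1 lower, with Pdia2 at 3.96 (SE 0.96, limma adjusted p = 0.000914), Bhlha15 at 1.61 (SE 0.36, limma adjusted p = 0.000297) and Bcl2 at −1.16 (SE 0.22, limma adjusted p = 4.57e-05).

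Whether the change with age differed between the cell types was tested as an interaction, the beta cell change between P0 and 8-12wk minus the alpha cell change. It was positive for 7 members (background 11.8%) and negative for 2 (background 11.6%), and the median was 0.37, beside −0.07 over all genes. Of the 7, 4 were ERAD genes and 3 were sensors and stress factors. Sel1l, the partner of Syvn1, changed by 0.60 in beta cells and −0.76 in alpha cells (difference 1.36, SE 0.22, limma adjusted p = 9.78e-06). Ern1 read 11.36, 11.68, 11.41 and 11.51 in 8-12wk beta cells and 9.96, 10.23 and 10.43 in P0 beta cells, and 10.58, 11.56, 10.74, 11.15 and 11.25 in 8-12wk alpha cells and 10.89, 11.41, 11.64 and 10.77 in P0 alpha cells (difference 1.41, SE 0.34, limma adjusted p = 0.0014). The beta ages were apart and the alpha ages overlapped, and in the mean over its probes the difference was 0.59 and not called. In the mean over a gene's probes Ero1b was called positive (1.23). The remaining positive members were Derl3 (1.43), Edem1 (1.40), Derl2 (1.08), Trib3 (1.08) and Atf6 (1.03), and Derl3, Derl2, Trib3 and Atf6 each lost the call when 1 of several arrays was left out.

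Pdia4 had the largest negative difference (−3.91, SE 1.02, limma adjusted p = 0.00276), from changes of −2.60 in beta cells and 1.30 in alpha cells. It read 6.66, 6.15, 6.81 and 6.85 in 8-12wk beta cells and 7.02, 10.07 and 10.57 in P0 beta cells, and 7.004, 8.91, 6.59, 6.12 and 7.09 in 8-12wk alpha cells and 5.97, 5.76, 5.99 and 5.63 in P0 alpha cells. Pdia5 followed with −1.26 (SE 0.25, limma adjusted p = 0.000108), from changes of −0.73 in beta cells and 0.54 in alpha cells. Among the 54 other ER genes 2 were positive and 2 negative, with Chac1 at 1.65 (SE 0.44, limma adjusted p = 0.00299) and Agr2 at −4.15 (SE 1.43, limma adjusted p = 0.0213). Mesenchymal genes averaged 7.56 in 8-12wk and 12.23 in P0 beta cells, against 5.66 in 8-12wk and 10.73 in P0 alpha cells, and macrophage and leukocyte genes 11.29 and 9.92 against 5.80 and 7.69. Their part in the interaction was not tested. This test shares its arrays with the comparisons of alpha ages and of adult cell types.

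**Figure D4:**
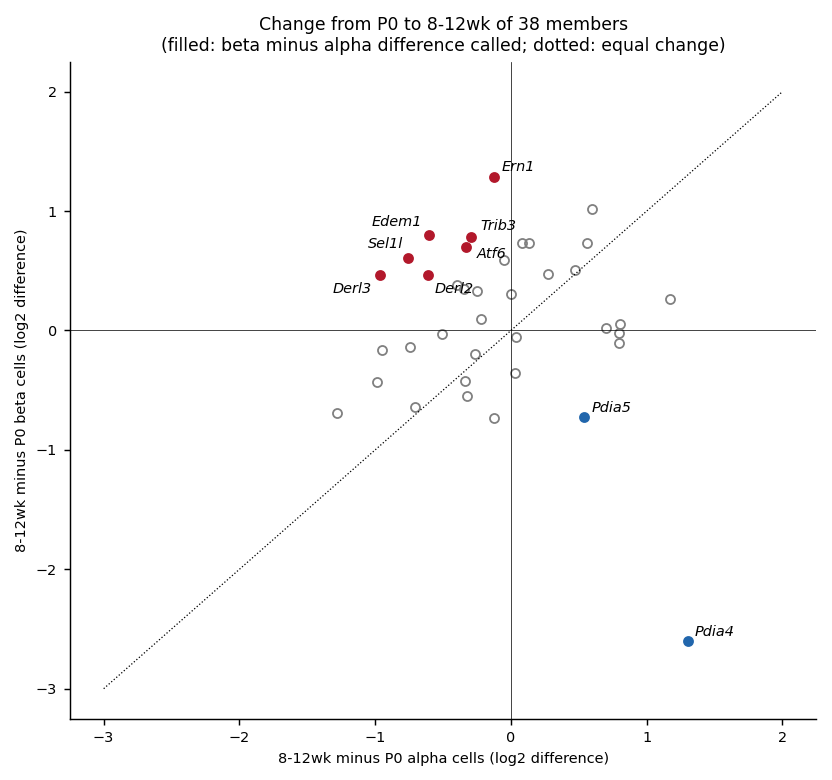
Change of each member between P0 and 8-12wk in alpha cells (x, log2) and beta cells (y, log2), with filled points where the difference between the 2 changes was called. Pdia4 lies at 1.30 and −2.60, the farthest of the 38 from equal change, but its P0 alpha values lay under the filter value.

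Duct cells of 8-12wk mice were set against E15.5 progenitors. Of the members 9 rose (background 15.1%) and 7 fell (background 19.6%), and the median was −0.04, beside −0.16 over all genes. The risers held 5 of 8 sensors and stress factors, and those that fell held 2 of 6 disulfide enzymes, 2 of 4 translocation genes, Sdf2l1, Creld2 and Edem2.

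Ddit3 read 11.55, 11.89, 12.06 and 12.05 in duct cells and 9.19, 9.12 and 9.54 in progenitors (2.61, SE 0.18, limma adjusted p = 2.34e-15), called on 1 of 2 probes. Ppp1r15a read 12.84, 12.54, 12.66 and 12.51 in duct cells and 10.58, 10.19 and 10.42 in progenitors (2.24, SE 0.29, limma adjusted p = 2.23e-08). Eif2ak3 read 11.26, 11.72, 11.35 and 10.86 in duct cells and 9.02, 9.29 and 9.37 in progenitors (2.07, SE 0.32, limma adjusted p = 5e-07). The kinase that slows translation under stress and both of its downstream genes thus stood more than 2-fold higher on every duct array. Dnajb9 (ERdj4), a co-chaperone that acts on Ern1 (1.56), Trib3 (1.54), Herpud1 (1.47) and Atf6 (1.01) rose as well. Atf6 lost its call with each array centred on its median (0.98), in the mean over its probes (0.54) and without any 1 of 3 arrays. Ero1b read 10.42, 10.91, 11.52 and 11.55 in duct cells and 9.78, 10.89 and 9.06 in progenitors (1.19, SE 0.26, limma adjusted p = 0.000156). Its groups overlapped, as did those of Derl3 (1.14), and without progenitor replicate 3 neither was called (0.76 for Ero1b and 0.83 for Derl3).

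**Figure D5:**
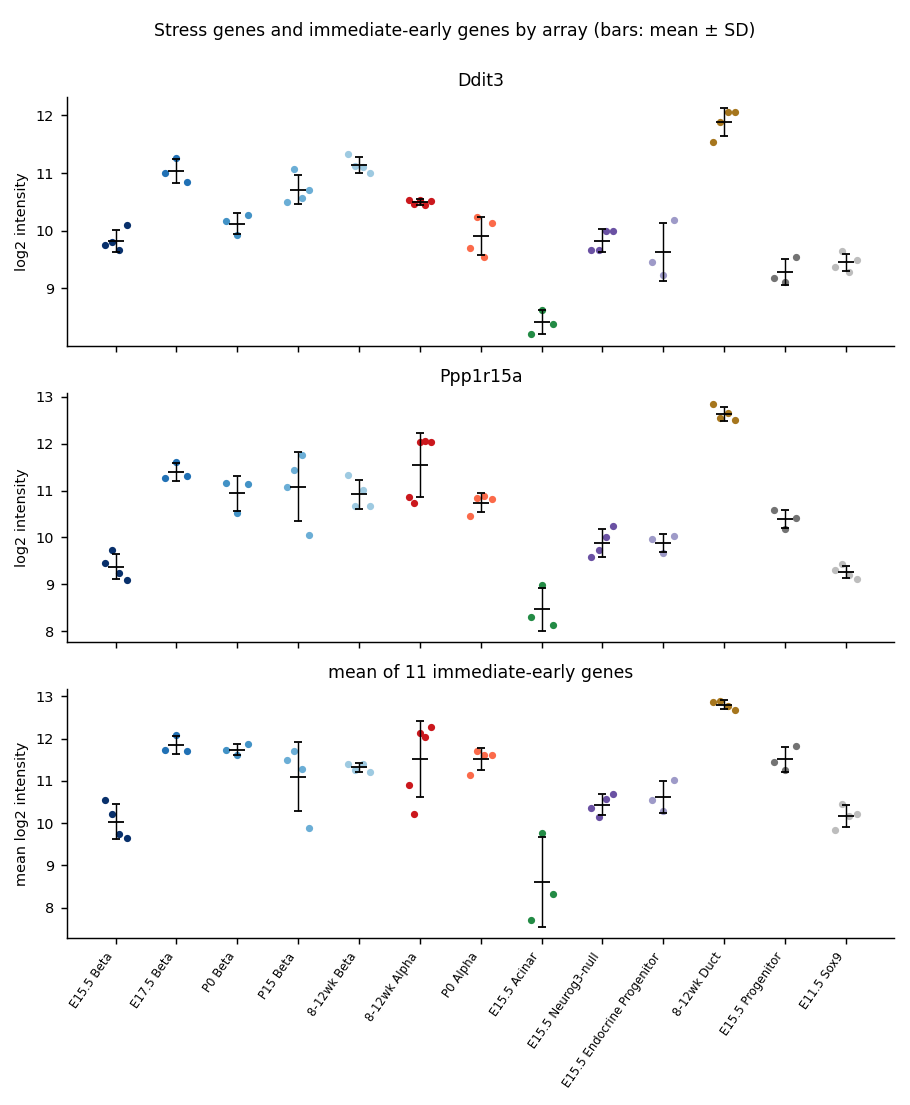
Log2 level on every array (points) and population mean (bar) for Ddit3, Ppp1r15a and the mean of 11 immediate-early genes in the 13 populations. Duct cells are highest and acinar cells lowest in all 3 panels.

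Of the 6 disulfide enzymes Pdia4 and Pdia5 fell, Ero1b rose and 3 were not called. Pdia4 read 5.98, 6.53, 6.38 and 6.44 in duct cells and 8.04, 7.78 and 11.15 in progenitors (−2.66, SE 0.77, limma adjusted p = 0.00314), and lost its call without progenitor replicate 3 (−1.58). Sdf2l1 read 6.20, 6.81, 7.45 and 6.995 in duct cells and 9.13, 9.78 and 8.52 in progenitors (−2.28, SE 0.46, limma adjusted p = 4.94e-05). Pdia5 read 8.70, 8.86, 8.28 and 8.34 in duct cells and 10.39, 10.62 and 10.26 in progenitors (−1.88, SE 0.19, limma adjusted p = 3.22e-11). All 3 were picked for the size of their differences and did not overlap between the groups, and Pdia5 had the least scatter. Sec61b, a subunit of the translocation channel (−1.58), Edem2 (−1.49), Creld2 (−1.13) and Spcs2, a signal peptidase subunit (−1.11), fell too, but Edem2 and Spcs2 were each −0.64 and not called in the mean over their probes.

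Of the wider list 3 rose and 8 fell in duct cells, with Chac1 at 4.85 (SE 0.33, limma adjusted p = 1.21e-15), Atf3 at 1.74 (SE 0.64, limma adjusted p = 0.0196) and Spcs3, another signal peptidase subunit, at −1.82 (SE 0.14, limma adjusted p = 4.61e-14). Immediate-early genes averaged 12.80 (12.68 to 12.90) in duct cells and 11.51 in progenitors, acinar genes 13.07 and 10.38, and macrophage and leukocyte genes 11.68 and 5.82. The part of dissociation, of acinar transcripts and of leukocytes in these values was not tested, and age, dissociating enzyme and cell type cannot be told apart here.

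The members were set against one another over the 13 population means, as a description in which all points share one normalization. Over the 703 pairs the median Pearson r was 0.38 and 82.8% of pairs were above 0. Chaperones correlated with one another at a median of 0.60, translocation genes at 0.72, and disulfide enzymes with the secreted proteins at 0.79, while sensors and translocation genes had a median of −0.32. The 5 closest pairs were Sdf2l1 and Creld2 (0.97), Sec61b and Spcs2 (0.92), Pdia5 and Sec61b (0.91), Pdia5 and Pdia6 (0.91) and Pdia5 and Creld2 (0.90), and Ddit3 and Ppp1r15a stood at 0.89. The most opposed were Ssr1, a subunit of the translocon-associated complex, and Ppp1r15a (−0.70). The genes most like Hspa5 were Dnajb9 (0.77), Syvn1, Derl3 and Herpud1 (0.73 each) and Eif2ak3 (0.72). Atf4, whose control is known to lie largely in its translation, had a median r of −0.12 with the other members.

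Over the 15 comparisons 27 members were called at least once. The share of all genes called at least once was not counted, so this describes the members only. Sdf2l1 was called in 8 comparisons, Edem1 and Edem2 in 7, and Pdia4 and Derl3 in 6. The 11 that were never called include 4 of the 5 chaperones (Hspa5, Hsp90b1, Calr and Canx), the disulfide isomerases Pdia3 and P4hb, Dnajc10, Derl1, Ssr1, Ssr3 and Atf4. On their brightest probes no difference was called. In the mean over a gene's probes, Ssr1 (2.03) and Canx (1.23) were called in acinar cells against endocrine progenitors. Pdia3 (1.02) and Ssr1 (1.02) were then called in E15.5 beta cells against endocrine progenitors, and Ssr1 in acinar cells (1.13) and duct cells (−1.02) against progenitors. Differences on the brightest probes were below 2-fold and not absent, as 3 examples named after their values were seen show. Hspa5 was 0.55 higher in duct cells than in progenitors (limma adjusted p = 1.3e-05), and Pdia3 was 0.96 higher in E15.5 beta cells than in endocrine progenitors (limma adjusted p = 2.64e-05). Atf4 read 13.63, 13.63, 13.68 and 13.53 in duct cells and 12.53, 12.52 and 12.88 in progenitors (0.97, limma adjusted p = 2.08e-07). Every duct array thus lay above every progenitor array for Atf4, in the population that also held the highest Ddit3 and Trib3.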

How the data were processed

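RNA of sorted cells from 48 samples was amplified and hybridised to Affymetrix mouse arrays, 1 array a sample. The authors deposited log2 expression values for 45101 probe sets after RMA normalization of all arrays together (justRMA in R 2.11.1, by the submitters' notes). RMA forces all arrays to one distribution, so levels are relative, and very bright probes can saturate. Groups were taken from the sample titles. Those of the Neurog3-null samples print another stage than the E15.5 of their stage characteristic, which was used, and the labels' P0 is P1 in the study's methods. Of the value columns 0 could not be mapped to a sample. Arrays were checked for repeated deposition by counting equal values, and none was a copy of another.

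Probe sets were named from the platform annotation, in which 34958 name 1 gene, 932 several and 9211 none. Of those with 1 gene, 34754 matched RefSeq by identifier, and no symbol changed. Each gene was read from the probe set with 1 gene and the highest mean over the 48 arrays. Levels of different probes were not compared with each other in tests. The 38 members have 90 such probe sets, 10 members have only 1, and the second Pdia4 probe set lay under the filter. Probe sets above 100 on the linear scale on at least 1 array were kept (32078, for 14405 genes). Contrasts were fitted with limma 3.58.1 in R 4.3.3 on 13 population means over all 48 arrays (35 residual degrees of freedom), with Benjamini-Hochberg adjustment over all 32078 probe sets. A call needed an adjusted p below 0.05 together with 1 log2 unit (2-fold) or more, after the study's methods, whose own test was run as an alternative and is named the methods' t-test. The fit was tested on simulated data before use.

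The 38 members and the lists were chosen with earlier results of these data known. The text may name every member. Values per array are given for up to 3 called members with the largest difference in each direction of a comparison, and for Hspa5, Xbp1, Ddit3 and Ero1b where called. Of 54 further ER genes up to 2 in each direction are named. Overlap of arrays is thus mostly described for genes picked by size, and its share over all genes was not counted. The list of 11 immediate-early genes was added after the members' values were seen. Some marker genes, among them Pnlip, Fbn1, Ins1, Mafa, Spp1 and Fev, and Sec61g, Eif2s1 and Bax of the wider list, were not used here.

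Same-numbered arrays deviated together in every pair only for E15.5 progenitors and E11.5 Sox9 cells (r of 0.11 to 0.15 over 3 pairs, a hint from the data only), and the counts of that comparison were the same with the replicate number as a block. Alternatives were no filter and a filter over 24 arrays, centring each array on its median, a fit to only the populations compared, the replicate block, the methods' t-test, the mean over a gene's probe sets, the adjusted p alone, and leaving out each array. Promoter windows (32851 for 27025 genes) came from RefSeq, build GRCm38.p6. Python 3.11.15 with numpy 2.4.6, pandas 2.3.3 and matplotlib 3.10.9 was used for the rest.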

Additional observations from a re-analysis of the deposited data

Results flagged for a closer look

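Arrays that stood apart within their population were looked for in 304 sets of 4 or 5 values, 1 for each member and population, by Dixon's ratio of gap to range, which chance exceeds in about 1 in 20 groups. It was exceeded in 19. Neurog3-null replicate 1 was low for Pdia4 (6.17, the others 6.67 to 6.76), Atf4 (12.31, the others 12.69 to 12.76) and Derl3 (6.54, the others 7.34 to 7.50), and high for Syvn1 (10.10, the others 9.67 to 9.73). Replicate 2 of that population was low for Derl1 (11.03, the others 11.40 to 11.44) and Ssr3 (11.91, the others 12.47 to 12.56). Both calls made in that population, Edem1 and Ern1, remained without either array.

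In E15.5 beta cells, Atf4 was low on replicate 3 (12.09, the others 12.30 to 12.31) and Derl3 on replicate 1 (8.83, the others 9.15 to 9.22). In P15 beta cells Calr was low on replicate 4 (13.16, the others 13.48 to 13.55). In 8-12wk beta cells Herpud1 was low on replicate 4 (11.14, the others 11.36 to 11.38) and Syvn1 was high on replicate 3 (10.37, the others 10.17 to 10.18). In 8-12wk alpha cells Derl3 was low on replicate 5 (5.45, the others 6.38 to 6.73) and Ssr1 on replicate 2 (10.99, the others 11.95 to 12.31). In P0 alpha cells replicate 1 was high for Hsp90b1 (12.81, the others 12.39 to 12.45) and low for Ppp1r15a (10.45, the others 10.82 to 10.88). In duct cells replicate 1 was high for Hspa5 (14.02, the others 13.93 to 13.95) and low for Pdia6 (10.52, the others 10.77 to 10.82). In E11.5 cells Pdia5 was high on replicate 4 (10.21, the others 9.99 to 10.02) and Trib3 on replicate 2 (7.15, the others 7.03).

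The change between P0 and 8-12wk differed between beta and alpha cells, by the test of the difference itself, for 9 members: Pdia4 (−3.91), Pdia5 (−1.26), Atf6 (1.03), Ern1 (1.41), Sel1l (1.36), Edem1 (1.40), Derl2 (1.08), Derl3 (1.43) and Trib3 (1.08).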

How the results depend on the processing

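Of 87 calls over 15 comparisons, 49 were kept under every alternative, 38 were lost under at least 1 and 0 changed sign. Calls were lost when 1 array was left out (23), under the methods' t-test (17), with the mean over a gene's probes (16), with each array centred on its median (6), with a fit to only the populations compared (3) and with the replicate block (2), and 0 with either other filter. Centring moved the median of all genes by at most 0.12. The causes were not tested.

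Counts that moved by over 1.5 times are these, higher first where both moved. With centring, 2 members rose at P15 against P0 (Ern1 and Atf6), and with only the 2 populations 0 fell. With the replicate block 2 fell between the alpha ages, Dnajb11 being added, and the block moved no other count by over 1.5 times. Outside E15.5 progenitors and E11.5 cells the replicate numbers are only shared numbers, with r of −0.42 to 0.30. The methods' t-test gave 2 risers in acinar cells against progenitors, 0 and 0 in endocrine progenitors against progenitors, 0 that fell at P0 against E17.5 and 0 that fell at P15 against P0. With the mean over probes 1 fell in endocrine progenitors against progenitors, 1 fell in acinar cells against endocrine progenitors, 3 and 0 moved at P15 against P0 (Ero1b and Edem2 added), 1 rose in postnatal against fetal beta cells (Ero1b), and 0 and 2 moved between the alpha ages (Edem1 added to Sdf2l1).

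At an adjusted p alone there were 17 and 3 in acinar cells against progenitors, 9 higher in E15.5 progenitors against E11.5 cells, 4 and 8 in endocrine progenitors against progenitors, 23 higher in acinar cells against endocrine progenitors, 7 and 7 in Neurog3-null cells, 26 and 2 in E15.5 beta cells, 4 and 2 at E17.5, 1 and 6 at P0, 15 higher at P15, 1 and 4 at 8-12wk, 17 and 11 in postnatal against fetal beta cells, 10 and 15 between the alpha ages, 29 and 1 in adult beta against alpha cells, 14 and 11 in duct cells, and 13 and 6 in the interaction. The share over all genes was not counted without the 2-fold limit, so these counts only show how the calls depend on that limit. Of the 2 alternatives chosen after seeing the data, leaving out 8-12wk alpha replicates 1 and 2 gave 3 and 2 between the alpha ages, 1 lower in adult beta cells, and 6 negative in the interaction (Xbp1, Atf4, Herpud1 and Ppp1r15a added). Leaving out Neurog3-null replicates 1 and 2 gave 2 risers, with Edem2 (1.21) added. The median r among members, 0.38, was 0.42 with the mean over probes and 0.40 without acinar cells.

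With 1 array left out in turn, the lowest and highest counts were 5 to 9 higher and 1 to 1 lower in acinar cells against progenitors, 2 to 4 and 0 in E15.5 progenitors against E11.5 cells, 1 to 2 and 1 to 4 in endocrine progenitors against progenitors, 12 to 12 and 1 to 2 in acinar cells against endocrine progenitors, 1 to 3 and 1 to 1 in Neurog3-null cells, 11 to 13 and 0 in E15.5 beta cells, 2 to 2 and 0 at E17.5, 0 and 1 to 2 at P0, 1 to 1 and 0 to 1 at P15, 0 to 1 and 0 at 8-12wk, 0 and 2 to 3 in postnatal against fetal beta cells, 1 to 1 and 1 to 3 between the alpha ages, 7 to 9 and 0 in adult beta against alpha cells, 7 to 9 and 6 to 7 in duct cells, and 4 to 7 and 2 to 4 in the interaction. The arrays whose omission moved a count by over 1.5 times were progenitor replicates 2 and 3, acinar replicate 3, endocrine progenitor replicates 2 and 3, Neurog3-null replicate 1, E17.5 beta replicate 3, P0 beta replicates 2 and 3, P15 beta replicates 2 and 3, 8-12wk beta replicate 2, P0 alpha replicates 1 to 3 and each of the 5 8-12wk alpha arrays. The number of arrays limits the precision, and the protein products were not measured.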
